A study of Mus musculus with 12 samples.

Results

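The 10 genes described here, Fos, Fosb, Jun, Junb, Jund, Egr1, Nr4a1, Atf3, Ier2 and Socs3, are genes of the immediate early response or close to it. They were chosen by symbol, and all 10 were found among the 32289 features of the count matrices. Droplet-based scRNA-seq of superior mesenteric ganglia (SMG), sympathetic ganglia from which tumors of these mice grow, gave 12 libraries, each from 1 mouse of the inbred strain 129+Ter/SvJcl. The mouse model has a human MYCN transgene under the rat Th promoter, which is active in sympathetic cells. Hemizygous carriers (Th-MYCN+/-) were 10 mice at 3 weeks of age, numbered #1 to #10, and 1 mouse at 6 weeks. The SMG of that older mouse had been taken for a visible tumor. The last library came from 1 wild-type (WT) mouse at 3 weeks. WT and 6 weeks were thus 1 mouse each, and no test was run on them.

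Immediate early genes are transcribed within minutes of a stimulus without new protein synthesis, mostly through MAP kinases that act on serum response factor with its Elk partners, and through CREB. Fos and Jun proteins pair to form the transcription factor AP-1, and Egr1, Nr4a1 and Atf3 encode further transcription factors. The same genes answer growth factors, neuronal activity and injury, and they are also known to be induced when fresh tissue is dissociated with warm enzymes. All 12 SMG were digested with collagenase IV and TrypLE at 37 °C for 40 min. No undissociated sample was analysed here, so that the level in the ganglion and a response to dissociation cannot be told apart.

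RefSeq promoters, here up to 250 bases before the annotated transcription start in GRCm38.p6, were at hand for 8 of the 10 genes. Ier2 and Egr1 had no entry. They are shown for 4 genes that were high together in 1 class of cells below, since they carry the letters through which CREB and STAT factors are known to bind. Capitals mark a CRE half-site (TGACG, or CGTCA on the other strand) in Fos, Nr4a1 and Junb, and the STAT motif TTCNNNGAA in Socs3. Each sequence is given 5′ to 3′ on the strand of the gene.
Fos, chr12:85473640-85473889, plus strand: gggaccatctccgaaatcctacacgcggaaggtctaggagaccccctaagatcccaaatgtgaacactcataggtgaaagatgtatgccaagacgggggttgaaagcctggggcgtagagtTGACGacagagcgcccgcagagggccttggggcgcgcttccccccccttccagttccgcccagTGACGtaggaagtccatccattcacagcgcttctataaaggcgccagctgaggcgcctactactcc
Nr4a1, chr15:101266596-101266845, plus strand: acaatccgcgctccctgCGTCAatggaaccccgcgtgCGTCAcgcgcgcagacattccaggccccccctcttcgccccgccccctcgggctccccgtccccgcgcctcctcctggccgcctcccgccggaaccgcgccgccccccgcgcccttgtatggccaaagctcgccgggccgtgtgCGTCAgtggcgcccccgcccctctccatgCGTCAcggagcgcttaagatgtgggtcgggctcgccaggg
Junb, chr8:84978749-84978998, minus strand: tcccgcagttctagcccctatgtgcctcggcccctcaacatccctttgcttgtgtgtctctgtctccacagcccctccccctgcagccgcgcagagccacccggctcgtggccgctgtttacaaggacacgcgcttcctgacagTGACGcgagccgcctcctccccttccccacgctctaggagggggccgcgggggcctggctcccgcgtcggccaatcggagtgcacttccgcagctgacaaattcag
Socs3, chr11:117969452-117969616, minus strand, shortened to end before an annotated exon: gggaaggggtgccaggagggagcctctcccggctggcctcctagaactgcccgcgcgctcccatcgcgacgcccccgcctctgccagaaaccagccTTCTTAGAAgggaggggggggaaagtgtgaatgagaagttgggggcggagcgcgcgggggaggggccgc

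The half-sites began at -129 and -66 from the start of Fos, at -233, -213, -69 and -40 from that of Nr4a1 and at -106 from that of Junb, and the STAT motif of Socs3 began at -154. Over 32851 promoter windows of 250 bases searched on both strands, 17.8% held a half-site and 7.02% the STAT motif, so that a single match is common. The full CRE (TGACGTCA, which contains the half-site) was in 1.55% of windows, the AP-1 motif TGANTCA in 6.75%, the CArG box of serum response factor in 1.47% and the Egr motif GCGTGGGCG in 0.536%. None of these 4 was found in the windows of the 8 genes. Fosb had 1 half-site at -60 and Atf3 1 at -7, the latter within an annotated exon, and Jun and Jund had no match to any motif searched. Only 1 start per gene was searched. The window of Jund ended at chr8:70697738, whereas the GENCODE annotation starts the gene further on, at 70698949. The windows of Nr4a1, Atf3 and Socs3 lay within the GENCODE spans of these genes. On their strands, those spans start upstream of the windows, at chr15:101254269, chr1:191218039 and chr11:117970047. The half-site was added to the search after the other motifs had given almost no match. A match is a description of letters and says nothing of binding in these cells.

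A total of 12033 cells passed the filters. The libraries held between 1147772 (WT) and 6388766 (#4) UMIs, the unique molecular identifiers that count captured RNA molecules. Sample #2 stood apart, with 38.9% of its UMIs in cells against 61.1% to 87.1% in the other 11 samples, with 1519 ganglion-like cells and with no more than 13 Schwann-like cells. Over all 66 pairs of libraries, 94 cell barcodes were shared, with at most 6 in a pair. Clusters were named from marker lists as Schwann-like (2910 cells), neuroblast-like (3081), ganglion-like (2716), endothelial-like (513), macrophage-like (242), myofibroblast-like (166) and fibroblast-like (142), with 44 NKT-like cells and 2219 cells left without a name. The 10 genes were not used for clustering. Every marker of its list stood out in the main Schwann-like cluster (18 of 18) and in the endothelial-like (16 of 16) and macrophage-like clusters (14 of 14), and at least 17 of 19 did in each ganglion-like cluster. The 3 neuroblast-like clusters held 17, 16 and 10 of 20. Levels are in CPM, the usual scaled counts, which relate a gene's UMIs to all UMIs of one class of cells in a sample, and are summarised as mean ± SD over the 10 Th-MYCN+/- samples of 3 weeks. As a measure of free RNA, the same genes were counted in barcodes with at most 100 UMIs, called empty droplets below.

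The immediate early genes were highest in Schwann-like and macrophage-like cells, intermediate in fibroblast-like, endothelial-like and myofibroblast-like cells and lowest in ganglion-like and neuroblast-like cells. The 10 genes together made up 8767 ± 2247 CPM in Schwann-like cells, 7409 ± 5189 in macrophage-like, 4838 ± 1742 in endothelial-like, 2320 ± 874 in ganglion-like and 1842 ± 458 in neuroblast-like cells. Empty droplets held 1976 ± 632 CPM. The spread between mice was widest in macrophage-like cells, in which sample #3 had 20750 CPM and #1 had 2661. Macrophage-like sums were also small, with 5 to 53 cells per sample.

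The scarcer classes were uneven between mice. Fibroblast-like cells held 6247 ± 5634 CPM of the 10 genes over 9 samples, from 1800 to 17799 with a median of 3248, of which Junb (1650 ± 2141), Jund (2228 ± 1616) and Fos (845 ± 1651) made up the most. Myofibroblast-like cells held 4616 ± 2654 CPM over 9 samples (1380 to 10391, median 3712), with Jund at 2257 ± 748, Jun at 726 ± 499, Junb at 723 ± 696 and Fos at 536 ± 966. NKT-like cells were numerous enough in 2 samples, at 3394 and 3994 CPM. Cells without a name held 1895 ± 575 CPM, with Fos at 95.3 ± 61.5, close to the neuroblast-like level. Atf3 had 0 UMIs in fibroblast-like, myofibroblast-like and NKT-like cells of these samples, and Socs3 had none in myofibroblast-like cells.

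**Figure D1:**
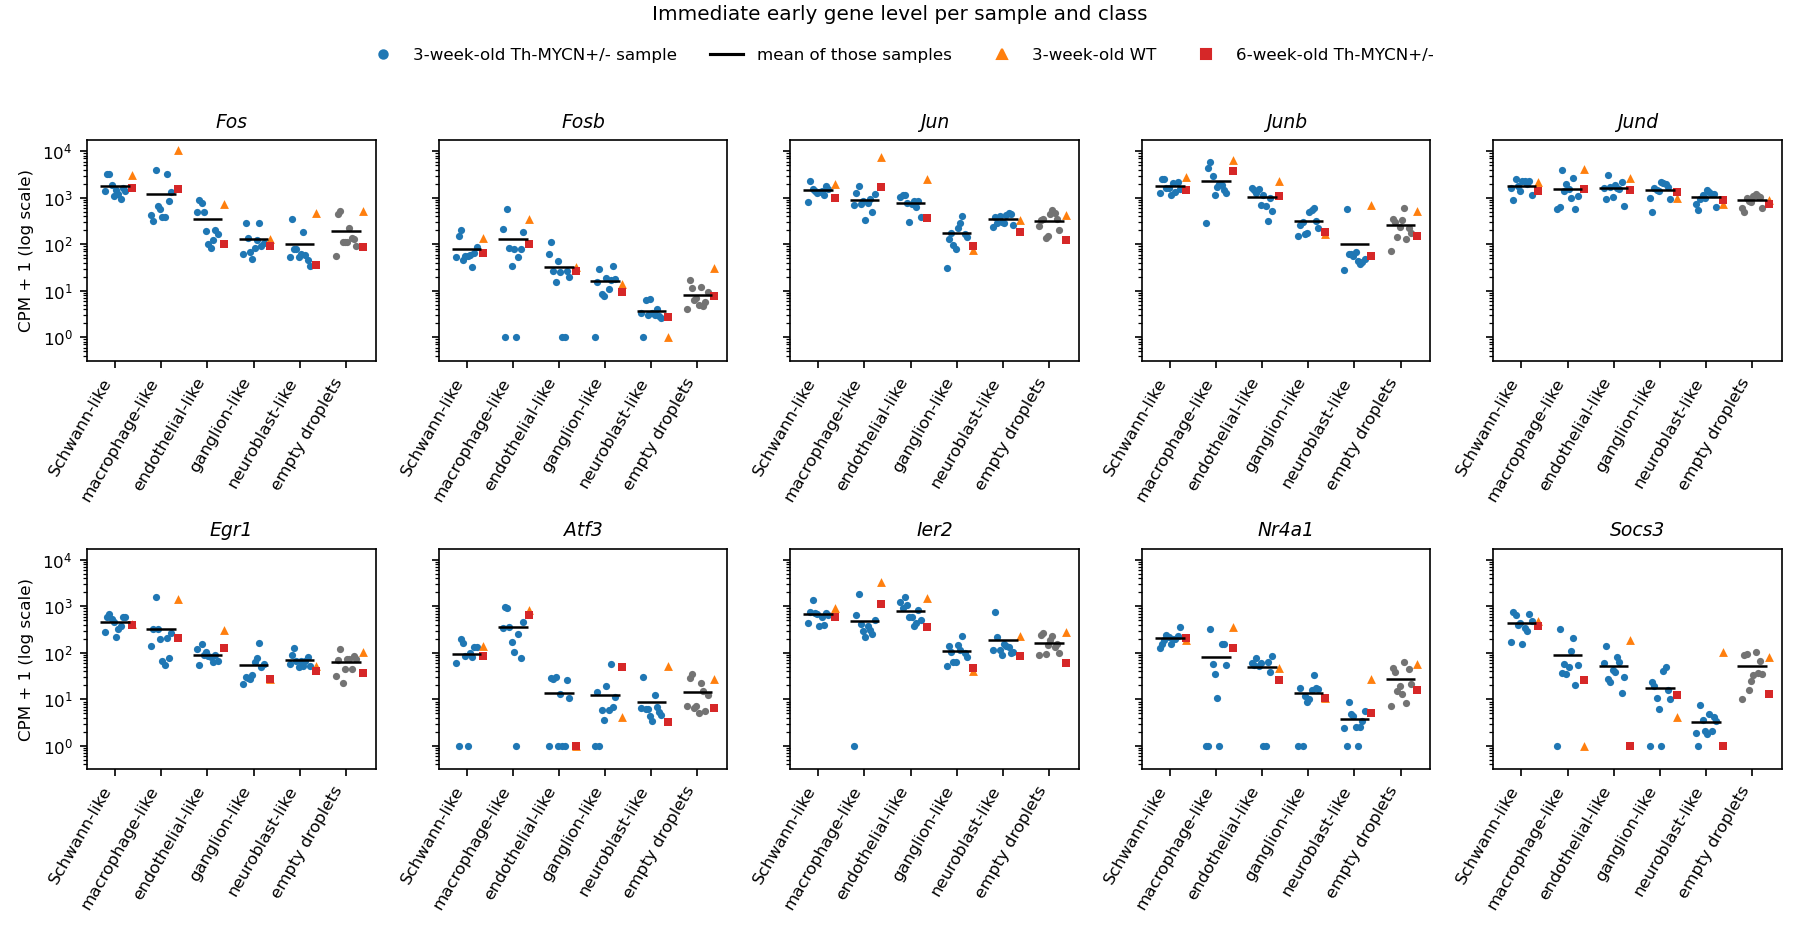
Level of each immediate early gene as CPM + 1 on a log scale, by class of cells. Each point is 1 of the 10 Th-MYCN+/- samples of 3 weeks, the bar is their mean, the triangle is the WT sample, the square is the 6-week-old sample, and grey points are empty droplets. Fos, Nr4a1 and Socs3 fall from Schwann-like to neuroblast-like cells, whereas Jund stays within a narrow range (1016 to 1811 mean CPM over these 5 classes).

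Fos encodes the AP-1 subunit whose mRNA is a standard mark of recent stimulation. In Schwann-like cells it was at 1756 ± 850 CPM, with a lowest value of 917 (#8), a median of 1439 and a highest of 3315 (#2, from 13 cells). In neuroblast-like cells it was at 99.2 ± 99.1 CPM, from 33.0 to 356 with a median of 59.8. Without #2, the means were 1582 ± 689 and 70.6 ± 43.3 CPM. The ranges did not overlap, and the neuroblast-like mean lay below the 194 ± 161 CPM of empty droplets. Ganglion-like cells (129 ± 86.9 CPM) also lay below that level on average, and endothelial-like cells were at 353 ± 297. Macrophage-like cells were at 1219 ± 1324 CPM, below Schwann-like cells in 8 of 10 samples. Fosb, a close relative of Fos, was at 79.6 ± 54.0 CPM in Schwann-like cells and at 2.61 ± 1.69 in neuroblast-like cells. Its highest mean was in macrophage-like cells, at 130.2 ± 174 CPM (0 to 584, median 77.4) on 43 UMIs in all, above Schwann-like cells in 7 of 10 samples.

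Among the Jun genes, Jun and Junb were higher in Schwann-like cells than in the neuronal classes with no overlap of the ranges, and Jund overlapped. Jun, the AP-1 subunit that Schwann cells are known to need for nerve repair, was at 1455 ± 392 CPM in Schwann-like cells (810 to 2260, median 1422). It was at 351 ± 86.0 in neuroblast-like (233 to 471, median 346) and at 171 ± 107 in ganglion-like cells (30.5 to 396, median 152). Junb was at 1790 ± 524 CPM in Schwann-like cells (1144 to 2564, median 1621) and at 2279 ± 1662 in macrophage-like cells (280 to 5763, median 1781), which were the higher of the pair in 5 of 10 samples. In neuroblast-like cells Junb ranged from 26.7 to 564 CPM with a median of 51.0. The highest value came from #2, and without it the mean fell from 100 ± 163 to 49.0 ± 13.3 CPM. Jund, which is known to be expressed more steadily than the other Jun genes, was at 1811 ± 544 CPM in Schwann-like, 1620 ± 681 in endothelial-like, 1480 ± 549 in ganglion-like and 1016 ± 302 in neuroblast-like cells. Its ranges overlapped between all of these classes.

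The zinc finger gene Egr1 was at 466.1 ± 155 CPM in Schwann-like cells (222 to 685, median 489) and at 69.9 ± 22.9 in neuroblast-like cells (48.9 to 124, median 65.4), close to the 63.1 CPM of empty droplets. Nr4a1, which encodes an orphan nuclear receptor, was at 206 ± 62.6 CPM in Schwann-like cells, from 129 to 354 with a median of 198. In neuroblast-like cells it was at 2.70 ± 2.41 CPM, with a highest value of 7.94. Socs3, which encodes a feedback inhibitor of cytokine receptors that signal through gp130 and STAT3, was at 437 ± 206 CPM in Schwann-like cells (155 to 754, median 422) and at 2.25 ± 1.95 in neuroblast-like cells (0 to 6.62, median 1.74). For all 3 genes the Schwann-like and neuroblast-like ranges were apart. The neuroblast-like levels of Nr4a1 and Socs3 also lay below those of empty droplets (26.9 and 50.2 CPM).

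Schwann-like cells did not have the highest mean for every gene. Beside Fosb, Junb and Jund, they were exceeded in Ier2 and Atf3. Ier2, which encodes a small nuclear protein, was highest in endothelial-like cells at 813 ± 385 CPM (371 to 1574, median 718), beside 673 ± 292 in Schwann-like cells (378 to 1400, median 663). Endothelial-like cells were the higher of the pair in 7 of 10 samples. Atf3, a stress-induced transcription factor, was highest in macrophage-like cells at 364 ± 332 CPM (0 to 955, median 303), beside 94.1 ± 63.7 in Schwann-like cells (0 to 197, median 90.5). Macrophage-like cells were higher in 8 of 10 samples, on few counts: 88 UMIs of Atf3 in all over the 10 samples.

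In the order of the class means, some neighbours differed by less than their spread over samples. On the scale of log2(CPM + 10), Schwann-like cells exceeded the next class, macrophage-like cells, by 0.99 ± 1.41 for Fos (higher in 8 of 10 samples) and by 0.76 ± 0.71 for Jun (9 of 10). For Nr4a1 the distance was 2.22 ± 1.72 (9 of 10), and for Egr1 1.12 ± 1.07 (9 of 10). For Socs3 the next class was fibroblast-like cells, at a distance of 3.05 ± 2.34 (9 of 9). The distance of macrophage-like from Schwann-like cells was 0.03 ± 0.97 in Junb and -0.10 ± 1.87 in Fosb, and that of endothelial-like from Schwann-like cells in Ier2 was 0.23 ± 0.59, all within the spread. In Jund, myofibroblast-like cells came first and exceeded fibroblast-like cells by 0.35 ± 1.27 (5 of 8 samples).

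Schwann-like cells were compared with neuroblast-like cells of the same mouse on summed counts with edgeR. All 9 genes tested were higher in Schwann-like cells, and among all 5630 genes tested 32.7% were called in that direction. The log2 fold change was 7.68 ± 0.20 (SE) for Socs3 (adjusted p = 1.0e-16) and 6.41 ± 0.24 for Nr4a1 (adjusted p = 4.3e-15). It was 5.16 ± 0.31 for Junb, 4.84 ± 0.27 for Fosb, 4.72 ± 0.27 for Fos and 3.01 ± 0.17 for Egr1. The smallest differences were 2.46 ± 0.24 for Ier2, 2.23 ± 0.15 for Jun and 1.06 ± 0.14 for Jund (adjusted p = 1.3e-06). Each of the 9 was higher in 10 of 10 samples. Fosb, Nr4a1 and Socs3 passed the filter on low counts through the Schwann-like sums. Their lowest neuroblast-like value was 0 CPM and their highest were 5.56, 7.94 and 6.62 CPM. Their part of the 9 could hardly have gone the other way and is a description. Atf3 did not pass this filter. With no filter it was called higher as well, so that 10 of 10 were called. Neuroblast-like cells were deeper, with a median of 4326 UMIs per cell beside 970 in Schwann-like cells. Cells without a name, which did not enter this comparison, were shallow (median 488 UMIs). They held the neuroblast list at 42691 CPM, beside 47958 CPM in neuroblast-like cells. The depth of the neuroblast-like class is thus that of the cells that could be named.

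In the same comparison, other early response genes were high together with the 10. Of 43 listed, 18 passed the filter and 17 were higher in Schwann-like cells, with a median log2 fold change of 2.88 beside -0.09 over all genes tested. Those with the largest differences were Cebpd (7.59 ± 0.30), a transcription factor of acute responses, Zfp36 (6.82 ± 0.38) and Zfp36l1 (6.51 ± 0.38), whose products destabilize AU-rich mRNAs, and Klf2 (5.70 ± 0.48). Of the genes around gp130 and STAT3, the pathway of which Socs3 is a target, 5 of 5 tested were higher, among them the receptor gene Il6st (3.97 ± 0.29) and Stat3 (2.63 ± 0.30). Heat shock genes were divided, with 3 higher and 6 lower of 11 tested. The stress-inducible chaperone gene Hspa1a was higher in Schwann-like cells by 7.85 ± 0.44 and its partner Dnajb1 by 2.98 ± 0.25, whereas Hsp90aa1 (-2.65 ± 0.15) and Hspd1 (-1.64 ± 0.14) were lower. Of 6 upstream kinase and transcription factor genes tested, 2 were higher and 3 lower, and Mapk3, which encodes ERK1, differed by 1.25 ± 0.15.

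**Figure D2:**
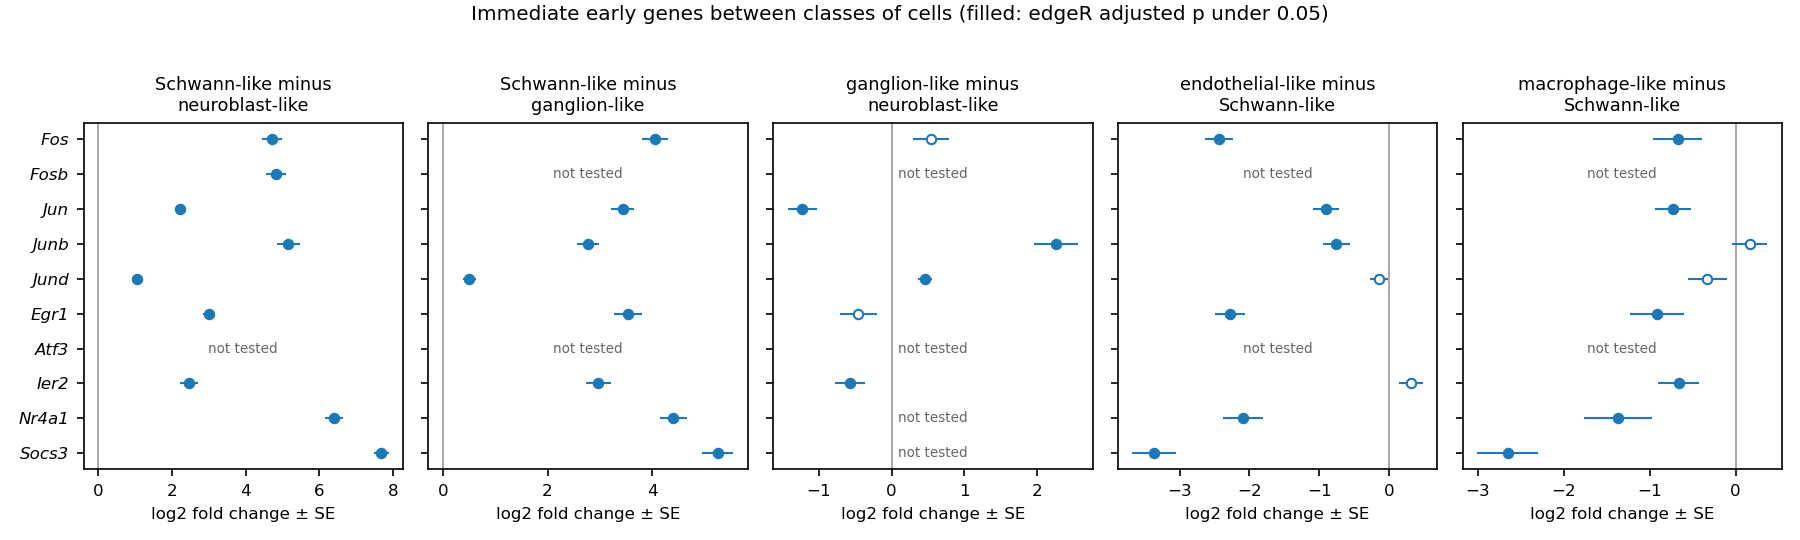
Log2 fold change of each gene between classes of cells, as fitted by edgeR with the sample as a block. Points are estimates, bars are SE, filled points had an adjusted p under 0.05, and panels have their own x axes. The left pair of panels, Schwann-like against neuroblast-like and against ganglion-like cells, lies to the right of 0 for every gene tested.

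Against ganglion-like cells, the mature sympathetic neurons of the ganglion by their markers, 8 of 8 genes tested were higher in Schwann-like cells, with 34.5% of all 3174 genes called in that direction and 35.7% in the other. Socs3 differed by 5.25 ± 0.30 on the log2 scale, Nr4a1 by 4.40 ± 0.25, Fos by 4.06 ± 0.25, Egr1 by 3.54 ± 0.26 and Jun by 3.44 ± 0.22. Ier2 differed by 2.97 ± 0.24 and Junb by 2.77 ± 0.21. Each of these 7 was higher in 10 of 10 samples. Jund differed by 0.50 ± 0.13 (adjusted p = 0.0014, 8 of 10 samples). Fosb and Atf3 did not pass the filter. Nr4a1 and Socs3, with a lowest ganglion-like value of 0 CPM, passed it through the Schwann-like sums. Their part of the 8 could hardly have gone the other way. Of the other early response genes, 12 of 13 tested were higher.

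Ganglion-like and neuroblast-like cells, the neuronal classes, differed in both directions. Junb was higher in ganglion-like cells by 2.27 ± 0.30 (adjusted p = 1.3e-06, 9 of 10 samples) and Jund by 0.46 ± 0.10 (adjusted p = 3.7e-04, 9 of 10). These were 2 of 6 genes tested, with 31.9% of all 7110 genes higher. Jun was lower by -1.23 ± 0.20 (adjusted p = 1.7e-05, lower in 10 of 10) and Ier2 by -0.57 ± 0.21 (adjusted p = 0.020, 9 of 10), with 35.6% of all genes lower. The call of Ier2 was lost without #2 (-0.40, adjusted p = 0.065) and without #5 (-0.53, adjusted p = 0.051). Fos was at 0.54 ± 0.24 (adjusted p = 0.054) and was called without #2, #4, #5, #6 or #7, with values from 0.60 to 0.67. Egr1 was at -0.46 ± 0.26 (adjusted p = 0.12) and was called without #8 (-0.63, adjusted p = 0.025). Without the sample block, 1 gene was called higher and 1 lower. Fosb, Nr4a1, Socs3 and Atf3 did not pass the filter. They were higher in ganglion-like cells in 9, 8, 8 and 4 of 10 samples. Of the other early response genes, 3 of 14 tested were higher and 2 lower. Schwann cell markers summed to 2324 CPM on average in neuroblast-like sums and to 14488 CPM in that of #2, in which Fos, Junb and Ier2 were also highest. Their part in these values was not tested.

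Endothelial-like cells had 6 of 8 genes tested lower than Schwann-like cells, with 27.7% of all 1699 genes called lower. Socs3 was lower by -3.37 ± 0.31, Fos by -2.44 ± 0.21, Egr1 by -2.28 ± 0.22 and Nr4a1 by -2.09 ± 0.29, each in 10 of 10 samples. Jun was lower by -0.91 ± 0.19 and Junb by -0.76 ± 0.20. Ier2 was at 0.31 ± 0.17 (adjusted p = 0.13) and turned to -0.03 with no filter on low counts, and Jund was at -0.14 ± 0.13 (adjusted p = 0.38). Fosb and Atf3 did not pass the filter. Nr4a1 and Socs3, with lowest endothelial-like values of 0 and 12.8 CPM, passed it through the Schwann-like sums. These 2 could hardly have been called higher. Other early response genes went the opposite way more often, with 8 of 15 tested higher in endothelial-like cells and 3 lower, where 29.4% of all genes were higher. Klf2, a transcription factor that flow is known to induce in endothelium, was higher by 4.00 ± 0.20, Sgk1 by 3.54 ± 0.49, the MAP kinase phosphatase gene Dusp1 by 1.92 ± 0.29 and Rhob by 1.72 ± 0.23.

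Macrophage-like cells had 6 of 8 genes tested lower than Schwann-like cells, with 39.9% of all 1066 genes called lower. Socs3 was lower by -2.65 ± 0.36 (10 of 10 samples), Nr4a1 by -1.37 ± 0.40, Egr1 by -0.91 ± 0.32, Jun by -0.73 ± 0.21, Fos by -0.67 ± 0.28 (adjusted p = 0.040) and Ier2 by -0.66 ± 0.24. The call of Fos was lost without #1, #2, #4, #5 or #7, and that of Ier2 without #4 or #5. Junb was at 0.16 ± 0.21 (adjusted p = 0.51) and Jund at -0.33 ± 0.22 (adjusted p = 0.20), with -0.50 (adjusted p = 0.050) without #3. Fosb and Atf3 did not pass the filter, and Atf3 was called higher in macrophage-like cells with no filter. It was also called without #2, #7 or #9. Nr4a1 and Socs3, with a lowest macrophage-like value of 0 CPM, passed the filter through the Schwann-like sums. Of the other early response genes, 7 of 10 tested were higher and 1 lower, where 26.9% of all genes were higher. Dusp1 (2.51 ± 0.30) and Cebpb (3.10 ± 0.30), a transcription factor of myeloid cells, were higher, and Cebpd (-3.65 ± 0.32) was lower. The macrophage-like sums also held B cell markers at 3371 CPM (0 to 7421). The part of B cells in these values was not tested.

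The share of cells with at least 1 UMI depends on depth, and was therefore taken after thinning every cell to 500 UMIs. Fos was then found in 34.9 ± 16.8% of Schwann-like, 25.3 ± 16.6% of macrophage-like, 9.05 ± 5.33% of endothelial-like, 5.51 ± 4.41% of ganglion-like and 3.75 ± 2.93% of neuroblast-like cells. Sample #2 entered the Schwann-like means at 500 UMIs with 8 cells, of which 6 had Fos. Without thinning the shares were 39.3%, 29.7%, 19.2%, 19.5% and 16.8%. The low shares in the neuronal classes, where the mean level lay below that of empty droplets, are not read as a difference between them. Free RNA was estimated from the marker list of each other class, all taken as free RNA with the makeup of empty droplets. The lowest of these estimates was kept for each sum, and in these sums it came from the macrophage markers. The other lists thus gave higher estimates. The highest of the kept estimates were 6.16% of neuroblast-like UMIs (#2) and 5.98% of ganglion-like UMIs (#3). They are point estimates without a counting interval and set no upper limit. In #2, the macrophage markers were at 29.7 CPM, which is 1 UMI in that sum. By these estimates free RNA would carry up to 28.03 and 31.01 CPM of Fos. The medians over the 10 samples were 1.01 and 2.72 CPM, beside median Fos levels of 59.8 and 98.5 CPM. The part of free RNA in these Fos levels was not tested. Ier2 was found in 30.6 ± 12.2% of endothelial-like and 18.8 ± 6.61% of Schwann-like cells (47.2% and 26.5% without thinning). Socs3 was found in 15.6 ± 8.96% of Schwann-like and 2.55 ± 3.40% of endothelial-like cells (21.2% and 6.14% without thinning).

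Within Schwann-like cells the genes were spread unevenly. At 500 UMIs per cell, 2.26 ± 0.59 of the 10 genes were detected per cell, 25.1 ± 8.41% of cells had at least 4 and 21.7 ± 10.3% had none. In endothelial-like cells 8.55 ± 7.48% had at least 4, and in neuroblast-like cells 0.509 ± 0.593%. Across 1818 Schwann-like cells, presence of Fos went with presence of Junb (phi coefficient 0.457), Jun (0.404), Egr1 (0.404) and Ier2 (0.375), all of which share library and depth. Pairs with Nr4a1 had phi coefficients of at most 0.113. At a finer clustering (resolution 1.0), the Schwann-like cells fell mainly into 3 clusters. Summed levels were 7697 ± 2834 CPM in the first (860 cells, 10 samples), 6296 ± 1695 in the second (806 cells, 9 samples) and 10842 ± 2017 in the third (541 cells, 6 samples), which also had the deepest cells (median 1610 UMIs beside 657 and 1006). In the third, Egr1 was at 742 ± 94.8 CPM, Socs3 at 625.3 ± 241 and Fos at 2047 ± 551, beside 246 ± 69.1, 288 ± 110 and 875 ± 565 in the second. The early response gene Ccn1, not left out of the clustering, was first among the genes that stood out in the third. The separation of this cluster is therefore not independent of the early response.

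Schwann-like cells with and without a Fos UMI, thinned to 500 UMIs each, were then compared within 9 samples (582 cells with Fos and 1228 without). All 7 other immediate early genes tested were higher in Fos-positive cells, where 2.38% of 714 genes were called higher. Egr1 rose from 124 ± 57.7 to 1029 ± 416 CPM (log2 fold change 2.95 ± 0.24) and Socs3 from 144 ± 55.3 to 944 ± 474 (2.73 ± 0.21). Junb differed by 2.39 ± 0.15, Ier2 by 2.32 ± 0.18 and Jun by 2.20 ± 0.17. These 5 were higher in 9 of 9 samples with no overlap of the groups, and so was Nr4a1 in each sample, by 1.09 ± 0.24 (adjusted p = 0.0062). Jund differed by 0.98 ± 0.17 (8 of 9). Fosb and Atf3 did not pass the filter, at 122 beside 33.3 CPM and at 213 beside 27.5 CPM. Egr1, Socs3 and Nr4a1 passed it through the Fos-positive sums, with lowest Fos-negative values of 22.5, 58.8 and 58.8 CPM. Their part of the 7 could hardly have gone the other way and is a description. With no filter, 8 of 9 genes were called. Over these 9 samples, median depth before thinning was 1274 UMIs in Fos-positive and 1049 in Fos-negative cells (deeper in 9 of 9 samples), and the mitochondrial share was 1.11% and 1.29% (lower in 8 of 9). Their part in the result was not tested.

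**Figure D3:**
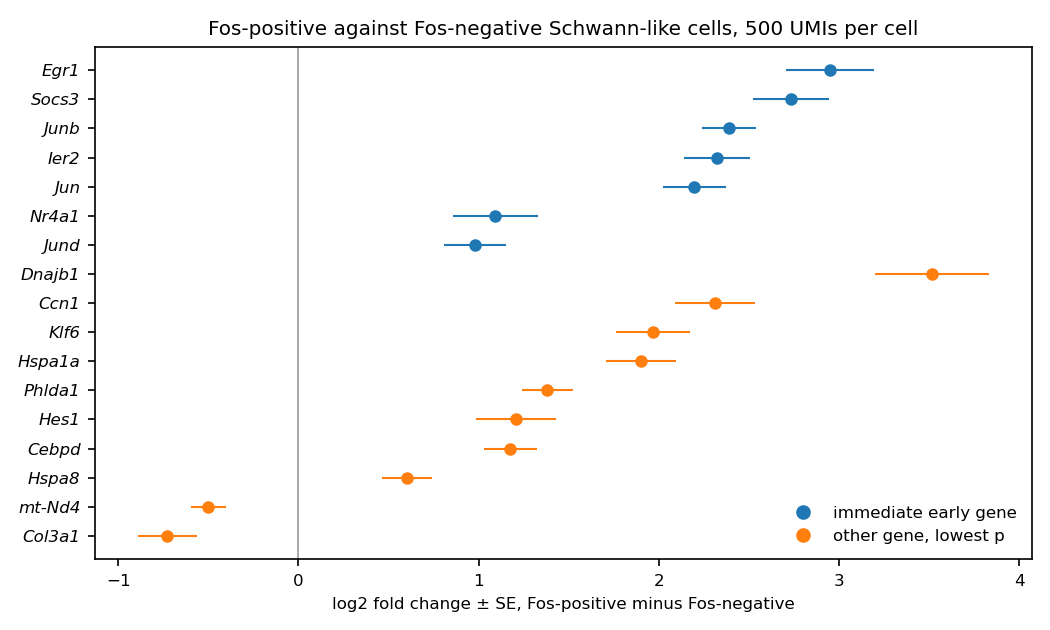
Log2 fold change ± SE between Fos-positive and Fos-negative Schwann-like cells, each thinned to 500 UMIs, in 9 samples. Blue points are the other immediate early genes that could be tested, and orange points are the 10 genes outside the list with the lowest p. All 7 blue points lie to the right of 0, as do 8 of the 10 orange points.

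Of the 10 other genes with the lowest p in this comparison, 8 were higher in Fos-positive cells. The heat shock genes Dnajb1 (3.52 ± 0.32), Hspa1a (1.90 ± 0.19) and Hspa8 (0.60 ± 0.14) were 3 of 8 tested on their list. Ccn1 (2.31 ± 0.22), a matricellular early response gene, Phlda1 (1.38 ± 0.14), the transcription factor genes Klf6 (1.97 ± 0.21) and Cebpd (1.18 ± 0.15), and Hes1 (1.21 ± 0.22), an effector of Notch, were also higher. The mitochondrial gene mt-Nd4 (-0.50 ± 0.10) and the collagen gene Col3a1 (-0.73 ± 0.16) were lower. Macrophage markers summed to 64.0 CPM (0 to 129) in Fos-positive and to 10.4 CPM (0 to 38.5) in Fos-negative cells and were higher in 8 of 9 samples. Their part in the result was not tested. The Schwann list without Apoe was at 61829 CPM in Fos-positive and 63702 CPM in Fos-negative cells.

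The same split called 0 of the genes in neuroblast-like and ganglion-like cells with edgeR, with 1 gene at an unadjusted p under 0.05 in each, and 0 with DESeq2. In neuroblast-like cells (65 with Fos, 7 samples), Jun (0.91 ± 0.44, adjusted p = 0.54) and Jund (-0.10 ± 0.31, adjusted p = 0.98) could be tested, where 1.31% of 764 genes were higher. The genes that were higher were led by Apoe (3.50 ± 0.32) and Cst3 (1.94 ± 0.31), both abundant in glia. The Schwann list was at 16763 CPM in Fos-positive and 1441 CPM in Fos-negative neuroblast-like cells, and was higher in 5 of 7 samples. In ganglion-like cells (169 with Fos, 3 samples), Jun (0.80 ± 0.40), Junb (0.68 ± 0.46) and Jund (0.18 ± 0.29) were not called, where 0.221% of 1358 genes were higher. Of the cells with Fos, 149 came from #2, 13 from #4 and 7 from #10. With so few cells in most sums, the lack of calls is not read as a difference from Schwann-like cells. Without #10, Socs3 passed the filter and was called (3.29 ± 0.27, adjusted p = 2.1e-04) on 2 samples. The 3 genes that were higher were Ccn1 (2.21 ± 0.29), Apoe (1.08 ± 0.27) and Fabp7 (1.11 ± 0.28), of which Fabp7 is a gene of glia. The Schwann list was at 9331 CPM beside 3870 CPM there, higher in 3 of 3 samples. The part of Schwann RNA in the Fos UMIs of both neuronal classes was not tested. In endothelial-like cells the split could not be fitted, since 1 sample had enough Fos-positive cells.

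Across 53 sums of a class in a sample, over 12 samples and 6603 genes, the 8 genes whose level was most like the summed level of the 10 were Zfp36 (r = 0.845), Tmbim6 (0.842), Tap2 (0.823), Cd81 (0.822), Selenop (0.817), Ppp1r15a (0.811), Hspa1a (0.810) and Arpc1b (0.808). Zfp36, Ppp1r15a and Hspa1a are early response or stress genes. Sums of 1 sample share a library, and these coefficients describe differences between classes as well as between mice. Among the 10, Fos was most like the other 9 (r = 0.853) and Jund least (r = 0.534).

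No relation between classes across mice passed the test. Over the 10 samples, the summed level on the scale of log2(CPM + 10) gave, between Schwann-like and endothelial-like cells, r = 0.544 (permutation p = 0.11) and rho = 0.406 (permutation p = 0.25), with adjusted p of 0.45 and 0.70. Without #2 and #3, the samples farthest from the median, r was 0.128, so that the relation rested on them. Over 6 pairs of classes r lay between -0.173 and 0.544, and adjusted permutation p for r between 0.45 and 0.85. Between neuroblast-like and ganglion-like cells r was 0.422 (permutation p = 0.23, adjusted 0.45), with rho = 0.479 (permutation p = 0.17, adjusted 0.70), and it was 0.865 without #2 (exact permutation, adjusted p = 0.010). The level in empty droplets, from 1110 (#1) to 3066 CPM (#7), also differed between samples, and its part in these relations was not tested. In the neuronal classes most of the summed level was Jund, with 13315 of 21857 UMIs in neuroblast-like and 9052 of 14357 in ganglion-like cells. These relations thus describe Jund more than the other genes there, and its part was not tested.

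**Figure D4:**
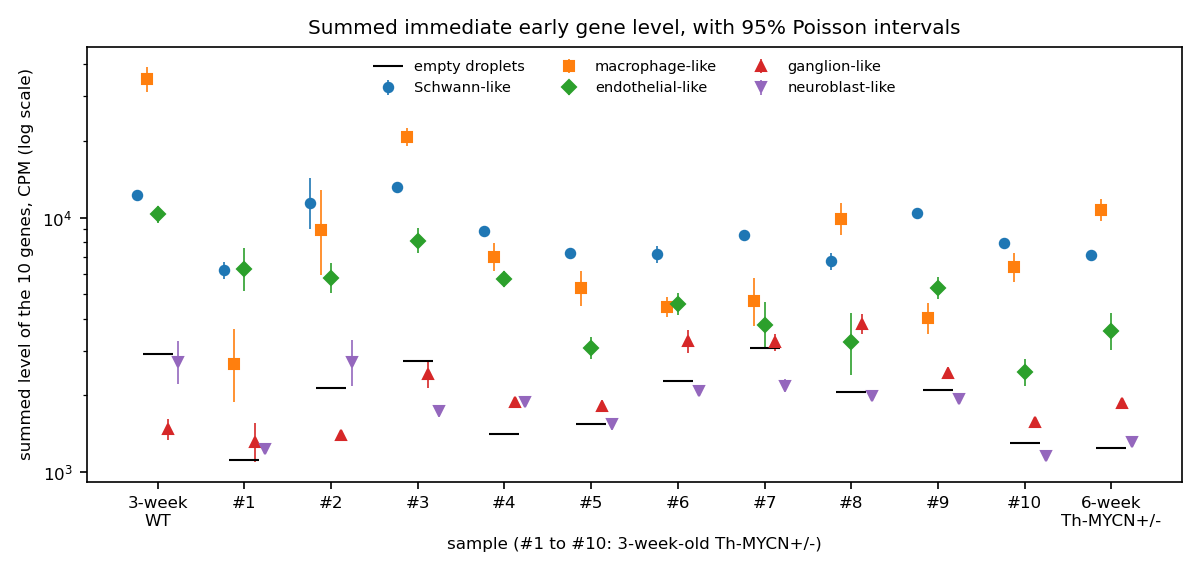
Summed level of the 10 genes in each sample, as CPM on a log scale, by class of cells, with 95% Poisson intervals that cover counting error. Black lines are empty droplets. Schwann-like cells (circles) lie above ganglion-like and neuroblast-like cells in each of the 12 samples, and the macrophage-like value of the WT sample (34954 CPM) is the highest point.

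The WT sample had high immediate early gene levels in several classes, on 1 mouse. In its 350 Schwann-like cells Fos was at 3042 CPM (95% Poisson interval 2823 to 3274), above 8 of the 10 Th-MYCN+/- samples of 3 weeks, and Junb was at 2828 CPM (2616 to 3052), above 10 of 10. Egr1 (420 CPM, above 4 of 10) and Nr4a1 (189 CPM, above 3 of 10) were within the range. In its 63 endothelial-like cells, Jun was at 2530 CPM and Egr1 at 316, each above 10 of 10, and in its 10 macrophage-like cells Fos was at 10474 CPM on 89 UMIs, above 10 of 10. In ganglion-like cells, in contrast, Ier2 was at 38.8 CPM, below all 10. The WT library was the shallowest (555.5 median UMIs per cell), and its empty droplets held 2903 CPM of the 10 genes, beside 1110 to 3066 in the 10 samples. Genotype, mouse and library cannot be told apart here.

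In the 6-week-old sample with a visible tumor, the 337 Schwann-like cells had levels within the range of the younger Th-MYCN+/- mice. Fos was at 1616 CPM (1505 to 1733, above 6 of 10), Junb at 1436 (1331 to 1546, above 3 of 10), Jun at 995.4 (909 to 1088, above 1 of 10) and Socs3 at 385 (332 to 444, above 4 of 10). In its 263 neuroblast-like cells, Jun (181 CPM, 164 to 199), Egr1 (39.8 CPM, 32.03 to 48.96) and Ier2 (83.7 CPM, 72.2 to 96.5) were each below all 10 samples. Socs3 had 0 UMIs there, which allows up to 1.33 CPM (3 counts of the total). Ganglion-like cells of this sample had Atf3 at 47.9 CPM (35.6 to 63.1), above 9 of 10. Age, tumor and mouse cannot be told apart in this sample.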

How the data were processed

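Single cells of the SMG from 12 mice were measured with Chromium 3′ v1 chemistry. The deposited values are raw UMI counts per gene and barcode, which the authors made with Cell Ranger (3.0.2 in the file headers) from reads aligned to mm10 with human MYCN added, with no selection of barcodes. Promoters came from RefSeq on the same build (GRCm38). Samples were grouped by genotype and age from the labels, which give no batch or date.

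Cells were called with an implementation of EmptyDrops (10000 draws, FDR 0.01) and kept with at least 200 genes, at most 10% mitochondrial and at most 60% ribosomal UMIs. No doublet caller was run. Clustering used Seurat 5.3.0 with SCTransform, 30 principal components and a resolution of 0.5. The 10 genes, the heat shock genes and the 41 other early response genes that matched a feature were left out. Ccn1, listed under its former symbol Cyr61, found no match and was not left out. Names such as "Schwann-like" required 50% of a marker list (3 markers or more) to reach 1.5-fold over the remaining cells with detection in 10% of the cluster. That rule was set after the files had been opened.

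Counts were summed per sample and class (at least 5 cells per sum) over the 10 Th-MYCN+/- samples of 3 weeks, and compared by quasi-likelihood fits in edgeR 4.0.16 (filterByExpr, TMM, Benjamini-Hochberg, FDR 0.05). The filter asks for enough counts in as many sums as 1 class has, so that a gene low in 1 class can enter through the other. Such a gene can hardly be called in the other direction. Both sums came from the same mouse, and the sample was therefore a block. Deviations of both sums from their class means correlated at -0.010 to 0.358. CPM in the text are not TMM-scaled, and fold changes are. On simulated counts with known changes, the test recovered 70.7% of genes changed by 1 and 98.8% of genes changed by 2 on the log2 scale between Schwann-like and neuroblast-like cells (5734 genes), and 76.1% and 100% for the Fos split (691 genes). The simulated counts had the same dispersion for every gene, equal base means in both classes and no difference between mice. Their recovery is therefore not the power in these data. For splits and shares every cell was thinned to 500 UMIs, shallower cells left out. Splits by Fos left Fos itself out of the test. Correlations across samples used log2(CPM + 10) and 100000 permutations (exact enumeration under 10 samples). Intervals and limits cover counting error only. Estimates of free RNA were the lowest over the marker lists of the other classes and were given no interval.

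The 10 genes, the gene lists and the tests were chosen with earlier results of these data known. The text gives all 10 genes in each comparison of classes, and counts for some of the lists with at most 4 examples of largest change among called genes. It also gives the 10 other genes of lowest p for the Fos split of Schwann-like cells, and the 8 genes most like the summed level. Of the 43 other early response genes, 41 matched a feature. Alternatives were DESeq2 1.42.0, no block, no filter, other cell calls, filters, clusterings and thinning, at least 10 cells per sum, subtraction of free RNA, and leaving out each sample.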

Additional observations from a re-analysis of the deposited data

Results flagged for a closer look

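In 16 of 55 groups of samples, the highest sample lay far from the others by Dixon's criterion. Its nominal level would give about 2.75 for independent, normally distributed values. The groups of 1 class share their cells and include the sum of the genes, and some levels rest on few UMIs. The excess over 2.75 is therefore not read as more than chance. Only levels of immediate early genes were searched, and samples #3, #2 and #8 gave all but 1 of the 16.

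In macrophage-like cells, #3 (25 cells) was far above the other samples in Fosb (584 CPM), Egr1 (1568 CPM), Ier2 (1824 CPM), Nr4a1 (328 CPM) and the sum of the 10 genes (20750 CPM). The same sample was apart in Ier2 in Schwann-like cells (1400 CPM) and in Egr1 in neuroblast-like cells (124 CPM).

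In neuroblast-like cells, #2 (44 cells) was apart in Fos (356 CPM), Junb (564 CPM), Atf3 (29.7 CPM) and Ier2 (742 CPM). Atf3 had 64 UMIs in all over the neuroblast-like sums of the 10 samples. Its value in the small sum of #2 rests on very few UMIs and is not read as a raised level. Its neuroblast-like sum also held the most RNA of the Schwann list (14488 CPM), and the part of that RNA was not tested.

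In ganglion-like cells, #8 (38 cells) was apart in Egr1 (162 CPM), Atf3 (56.5 CPM), Ier2 (234 CPM) and Nr4a1 (32.3 CPM). In Schwann-like cells, #10 was apart in Nr4a1 (354 CPM).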

How the results depend on the processing

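The direction of all calls of Schwann-like against neuroblast-like and ganglion-like cells held under each alternative run, although Jund against ganglion-like cells (0.26 and 0.27) was no longer called with no filter and with log-normalized clustering. Apart from left-out samples, 442 values of single genes kept direction and call, 17 lost the call, 10 gained it and 9 turned. Without the block, which pairs both classes of a mouse, 1 gene was called higher and 1 lower in ganglion-like against neuroblast-like cells, and 3 genes lower in macrophage-like cells. No filter on low counts gave 4 genes higher in ganglion-like cells, 1 higher in macrophage-like cells and 1 higher and 1 lower in Fos-positive neuroblast-like cells. At least 10 cells per sum gave 1 gene higher, and barcodes with at least 500 UMIs 3 genes lower, in macrophage-like cells. Keeping the genes in the clustering left 1 gene lower in ganglion-like cells.

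Signs that turned were those of values not called: Ier2 in endothelial-like cells (-0.034 with no filter), Junb in macrophage-like cells (-0.20 with DESeq2, -0.22 with no filter), and in the splits by Fos Jun (-0.40 with no filter) and Jund in neuroblast-like cells (0.033 with DESeq2, 0.11 at 1000 UMIs) and Jund in ganglion-like cells (-0.12 without the block, -0.39 with no filter, -0.0096 at 1000 UMIs). Leaving out a sample turned Junb in macrophage-like cells (range -0.091 to 0.28) and Jund in the neuroblast-like split (range -0.27 to 0.022).

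The correlation of Schwann-like with ganglion-like cells was 0.014 with barcodes of at least 500 UMIs. Leaving out each sample, r ranged from 0.266 to 0.595 (Schwann-like with neuroblast-like), -0.362 to 0.142 (with ganglion-like), 0.311 to 0.806 (with endothelial-like), 0.241 to 0.865 (neuroblast-like with ganglion-like), -0.108 to 0.517 (neuroblast-like with endothelial-like) and -0.446 to -0.004 (ganglion-like with endothelial-like). The counts of calls ranged from 9 to 10 and 8 to 9 (Schwann-like against neuroblast-like and ganglion-like), 2 to 3 higher and 1 to 3 lower (ganglion-like against neuroblast-like), 0 to 1 higher and 4 to 7 lower (macrophage-like) and 0 to 1 (ganglion-like split). Shares moved with depth. Without thinning, Fos was in 19.2% of endothelial-like, 19.5% of ganglion-like and 16.8% of neuroblast-like cells, Ier2 in 26.5% of Schwann-like and 47.2% of endothelial-like cells and Socs3 in 6.14% of endothelial-like cells. At 200 UMIs, Ier2 was in 9.38% and 10.6% of these and Socs3 in 6.30% of Schwann-like cells. The cause of these changes was not tested. Atf3 and Fosb, at a few UMIs per sum in most classes, were limited by depth.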
